A study of Rattus norvegicus with 21 samples.

Results

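The inflammatory cytokines Il1a, Il1b, Il6 and Tnf were followed across all groups of a rat spinal cord study of anti-inflammatory compounds. Every probe whose gene symbol in the platform annotation is one of these 4 genes was taken, which gave 5 probes of the 5376 on the array (4962 with a value on at least 1 array): probe 26E06 for Il1a, 25H04 and 52A11 for Il1b, 26B01 for Il6 and 26E09 for Tnf. RNA was measured on 21 arrays of 2 colours, 3 for each of 7 groups. Spinal cord cultures treated for 4 hr with CKIN, MP or acetaminophen (Acet), unpooled 4 hr cultures given the vehicle PBS (Injured 4 hr) and freshly dissected cord (Uninjured) were each set against a pool of PBS-treated 4 hr cultures. The remaining groups had other pools, of cultures given ethanol (ETOH) for 4 hr indomethacin cultures (Indo) and of cultures given DMSO for 4 hr NS398 cultures. The labels do not spell out CKIN or MP. From knowledge of the field, CKIN is read here as cytokine inhibitors and MP as the glucocorticoid methylprednisolone. Acetaminophen relieves pain. Indomethacin blocks both cyclooxygenase enzymes, which make prostaglandins, and NS398 mainly blocks cyclooxygenase 2. The sources used here give no strain, age, dose or number of animals, and all cultured groups share the dissection and the culture itself. Injury is therefore modelled by cutting and culturing cord, which holds its resident cells and only the blood left in the tissue.

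Interleukin 1 alpha and interleukin 1 beta, the products of Il1a and Il1b, act on the same receptor. The alpha form is active as its precursor and is released from damaged cells, whereas the beta form must be cut by caspase 1. Both, like tumour necrosis factor from Tnf, activate NF-kB and stress kinases, which in turn induce chemokines, cyclooxygenase 2 and interleukin 6. Interleukin 6 signals through the shared receptor chain encoded by Il6st and through STAT3. In injured spinal cord, microglia and invading myeloid cells are the best known sources of these cytokines, and their transcripts appear early.

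The 4 genes were all found in RefSeq by symbol, and their promoters are shown to place matches to the motifs of NF-kB and other inflammatory transcription factors. Each covers 250 bases before to 50 bases after the annotated start in build GRCr8, and capitals mark matches to the NF-kB consensus, the AP-1 motif TGANTCA, the C/EBP motif TTGCNNAA or TATAAA on either strand. The windows lie at chr3:136989968-136990267 (Il1a, minus strand), chr3:137036532-137036831 (Il1b, minus strand), chr4:5894526-5894825 (Il6, minus strand) and chr20:3626435-3626734 (Tnf, plus strand).
Il1a: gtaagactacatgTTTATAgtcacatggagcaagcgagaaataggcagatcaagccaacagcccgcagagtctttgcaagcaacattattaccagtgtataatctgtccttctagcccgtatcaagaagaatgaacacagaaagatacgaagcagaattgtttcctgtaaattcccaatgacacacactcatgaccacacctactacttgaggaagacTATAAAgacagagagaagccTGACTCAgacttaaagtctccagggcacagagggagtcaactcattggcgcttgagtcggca
Il1b: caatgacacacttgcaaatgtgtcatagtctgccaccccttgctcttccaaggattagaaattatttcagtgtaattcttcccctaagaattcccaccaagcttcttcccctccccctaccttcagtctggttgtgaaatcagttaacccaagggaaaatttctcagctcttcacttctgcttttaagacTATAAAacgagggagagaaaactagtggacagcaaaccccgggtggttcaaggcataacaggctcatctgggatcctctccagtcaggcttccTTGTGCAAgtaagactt
Il6: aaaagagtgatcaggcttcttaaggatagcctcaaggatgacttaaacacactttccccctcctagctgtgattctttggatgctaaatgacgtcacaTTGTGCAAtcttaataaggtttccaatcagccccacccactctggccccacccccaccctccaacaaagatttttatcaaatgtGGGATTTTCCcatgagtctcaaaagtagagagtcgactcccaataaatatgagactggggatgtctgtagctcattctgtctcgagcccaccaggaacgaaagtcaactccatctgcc
Tnf: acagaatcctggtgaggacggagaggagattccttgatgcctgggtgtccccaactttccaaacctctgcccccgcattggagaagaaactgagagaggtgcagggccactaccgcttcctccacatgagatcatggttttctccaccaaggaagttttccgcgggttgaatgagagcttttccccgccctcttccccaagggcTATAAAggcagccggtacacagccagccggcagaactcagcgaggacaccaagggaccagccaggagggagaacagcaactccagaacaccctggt

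The Il1a window held TATAAA at position -32 and its reverse at -237, and the AP-1 match TGACTCA at -12. The Il1b window held TATAAA at -60 and the C/EBP match TTGTGCAA, on the reverse strand, after the start at 34. The Il6 window was the 1 of the 4 with a match to the NF-kB consensus, GGGATTTTCC at -68, and it held the C/EBP match TTGTGCAA, again on the reverse strand, at -152. The Tnf window held TATAAA at -46. No match overlapped another. Among 33469 RefSeq promoters of the same length, 7.51% held the NF-kB consensus, 7.33% the AP-1 motif, 10.6% the C/EBP motif and 14.2% TATAAA. These are matches of letters, and a window without one says nothing about the factor.

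The values are log2 ratios of sample over pool, shifted on each array so that its median probe is at 0. The order of RNAs in the titles gave the direction, a likely reading that no label states. Between 3092 and 4916 spots were measured per array, and 10 arrays had more than 1100 missing spots (all of CKIN and Indo, MP 1 and 3, NS398 1 and Acet 1). Before centring, array medians lay between -1.62 and 0.70 in the treatments, between -2.26 and -2.12 in Injured 4 hr, and between -4.12 and -3.09 in Uninjured. The cytokine probes lacked a value on 11 of 75 spots of the treatment arrays (14.7%, against 16.9% of all probes) and on 0 of 30 spots of the Injured 4 hr and Uninjured arrays (against 3.63%). Exact ratios of whole numbers up to 20 made up 8 of the 64 cytokine values on treatment arrays (12.5%, against 10.3% of all spots), and 5 of these 8 were Tnf. On Injured 4 hr and Uninjured arrays they were 0 of 30 (against 0.83%). The part of these differences between array sets in the results was not tested. Without centring, the median difference of all tested probes was itself 1.47 in Injured 4 hr against Uninjured, 1.54 in CKIN, 1.67 in MP and 1.64 in Acet against Injured 4 hr, -0.035 in Indo and -0.98 in NS398, and values given without centring are to be read against these shifts. The 19 neuronal marker probes had centred array medians of up to 1.65 in Injured 4 hr and up to 3.32 in Uninjured, and of at least 2.84 on every Uninjured array. Gapdh, averaged over its spots, differed in the same way, at 2.15 to 2.17 in Injured 4 hr and 3.66 to 4.03 in Uninjured. The marker medians are therefore no check of the tissue.

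Over 9 comparisons, 44 tests of a cytokine probe could be made and 4 passed an adjusted p of 0.05 in limma. Il1a rose in Injured 4 hr against Uninjured and in NS398 against its pool, and it fell in MP against Injured 4 hr. Il1b fell in CKIN against Injured 4 hr at probe 52A11 only. No test of Il6 or Tnf passed in centred ratios. After culture, 1 cytokine probe of 5 rose, where 0.809% of 4822 probes rose and 13.5% fell. In CKIN against Injured 4 hr 1 of 5 fell, where 18.5% of 3736 probes fell, and 3 of 5 lay lower without overlap, where 38.5% did. In MP against Injured 4 hr 1 of 5 fell, where 2% of 4391 fell, and 2 of 5 lay lower without overlap, where 20.4% did. In Acet against Injured 4 hr 0 of 5 passed, where 1.31% of 4734 did. For Indo 0 of 4 passed, where 13.3% of 3803 did, and for NS398 1 of 5 rose, where 10.7% of 4486 rose.

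The balance of all calls depended on the scaling. In Injured 4 hr against Uninjured 5.65% of the called probes were higher in centred ratios, 99.4% without centring, 70% after quantile normalization and 37.4% in corrected ratios, from which a curve on the mean Injured 4 hr ratio and the source plate medians had been removed. In the same order of settings the shares were 7.35%, 100%, 25.5% and 37.5% in CKIN, 2.22%, 100%, 25.7% and 25.6% in MP, and 8.06%, 100%, 33.3% and 26.8% in Acet, each against Injured 4 hr. They were 19.5%, 7.96%, 52.8% and 34.7% in Indo and 48.6%, 2.68%, 59.2% and 38.7% in NS398. With source plate centring the share in Indo was 30.8%. Without centring the probes called were 2430 of 4822 in Injured 4 hr against Uninjured and 1977 of 4486 in NS398. Against Injured 4 hr they were 2232 of 3736 in CKIN, 3170 of 4391 in MP and 3371 of 4734 in Acet. Counts of list probes without centring, given below, are to be read against these.

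**Figure D1:**
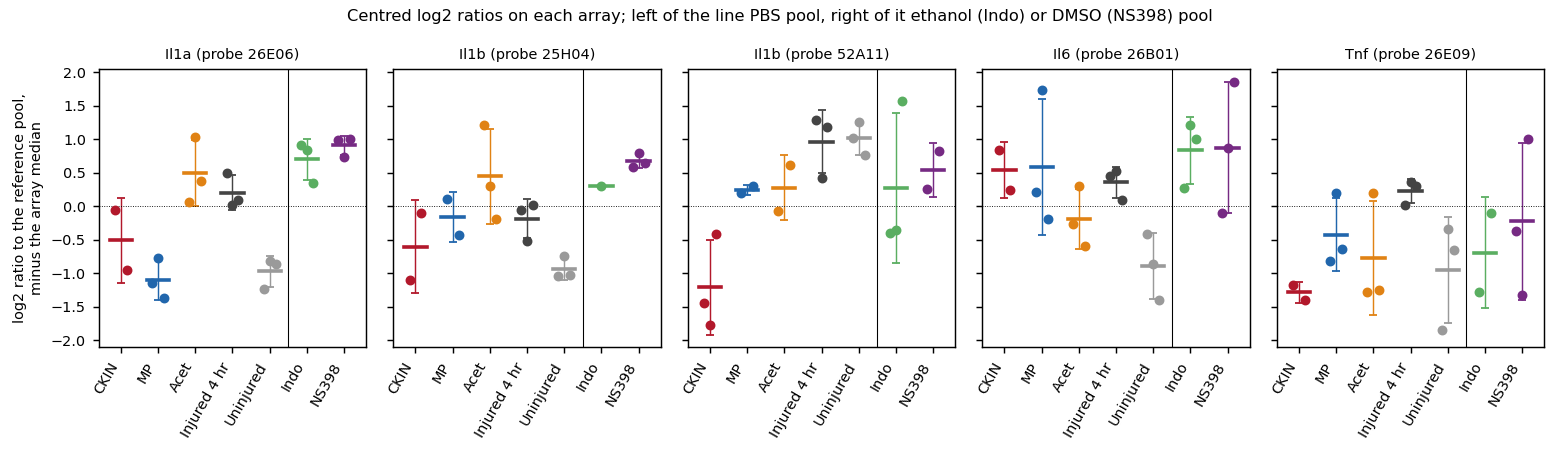
Centred log2 ratios (vertical axis, to the reference pool and relative to the array median) of the 5 cytokine probes on each array, by group. Points are arrays, bars the mean and SD, and the vertical line parts groups set against the PBS pool from Indo and NS398, which have other pools. Il1a lay between -1.36 and -0.77 in MP and between -1.24 and -0.81 in Uninjured, both below all Injured 4 hr arrays, and probe 52A11 of Il1b was lowest in CKIN.

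Il1a, the alarmin form of interleukin 1, gave 3 of the 4 calls. Its centred log2 ratio was 0.50, 0.024 and 0.097 on the 3 Injured 4 hr arrays, against -1.24, -0.81 and -0.86 on the 3 Uninjured arrays. Here and below n counts arrays, which no label ties to separate animals or cultures. Every Injured 4 hr array lay above every Uninjured array. The mean was 0.21 ± 0.26 in Injured 4 hr and -0.97 ± 0.23 in Uninjured (SD, n = 3 each). The difference of 1.18 ± 0.33 (SE; limma adjusted p = 0.0213) was higher than 98.5% of all tested differences. Placed among all probes of its own array, Il1a stood between percentile 51.8 and 72.2 in Injured 4 hr and between 5.24 and 20.4 in Uninjured. The call was lost without Injured 4 hr 1 (1.03, adjusted p = 0.103), Injured 4 hr 3 (1.23, adjusted p = 0.0545) or Uninjured 1 (1.04, adjusted p = 0.0876), and after quantile normalization (1.17, adjusted p = 0.351).

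In MP cultures Il1a averaged -1.09 ± 0.30 (SD, n = 3). Its ratio was -1.14, -0.77 and -1.36 in MP, against 0.50, 0.024 and 0.097 in Injured 4 hr, and the groups did not overlap. Il1a fell by 1.30 ± 0.34 on the log2 scale (SE, n = 3 each; limma adjusted p = 0.0449). In centred ratios, 5.26% of the tested differences of this comparison were as low or lower. It stood between percentile 9.81 and 17.0 on the MP arrays. This call depended on single arrays. It was lost without any 1 of the Injured 4 hr arrays or without MP 1 or MP 3, at -1.46 to -1.15 over all omissions. Without centring the difference was 0.69 and the direction turned (adjusted p = 0.225), and with the array set as a block it was -1.07 (adjusted p = 0.193). It did not pass after quantile normalization (-1.19, adjusted p = 0.115) or in corrected ratios (-1.13, adjusted p = 0.0513). MP 2, the 1 MP array with few missing spots, differed from the Injured 4 hr mean by -0.98.

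Set against acetaminophen, another treatment with the PBS pool, Il1a in MP lay lower as well. The Acet values were 0.066, 1.03 and 0.38, above all 3 MP values. The difference was -1.58 ± 0.34 (SE, n = 3 each) with an unadjusted p of 0.000113 in limma, and the adjusted p of 0.173 did not pass. Of all tested differences between MP and Acet, 0.32% were as low or lower. Only 1 of 4379 probes passed there (0.0228%) and it was the collagen gene Col1a1, higher in MP. Without MP 2, the Il1a difference was -1.75 and passed (adjusted p = 0.033).

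Acet overlapped Injured 4 hr for Il1a, at a difference of 0.29 with a 95% interval from -0.41 to 0.98 (limma adjusted p = 0.79). CKIN gave -0.053 and -0.95 on the 2 arrays that measured Il1a, both below the Injured 4 hr arrays. The difference of -0.71 ± 0.38 did not pass (adjusted p = 0.194), and 38.5% of all tested probes lay below Injured 4 hr without overlap in this comparison.

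The cyclooxygenase inhibitors were set against pools of their own vehicles. Il1a was 0.99, 0.74 and 1.00 in NS398 against the DMSO pool. All 3 values lay above 0, as did those of 25.5% of all tested probes. The mean of 0.91 ± 0.15 (SD, n = 3) differed from 0 by limma (SE 0.24, adjusted p = 0.00978). In Indo against the ETOH pool Il1a was 0.92, 0.84 and 0.36, also above 0 on all 3 arrays, as were 24.8% of all tested probes. That mean of 0.70 ± 0.31 (SD, n = 3) did not pass (adjusted p = 0.0544). NS398 minus Indo was 0.21 with a 95% interval from -0.50 to 0.91 (adjusted p = 0.851). A pool counts as 1 control sample, so these tests leave out the spread among vehicle cultures. When the Injured 4 hr arrays, PBS cultures against a PBS pool, were tested against 0 in the same way, 22.1% of 4865 probes passed. In that test of like against like Il1a was 0.21 (adjusted p = 0.613), and probe 52A11 of Il1b passed at 0.97 (adjusted p = 0.0445). Without centring, Il1a in NS398 was 0.018 (adjusted p = 0.971), and without NS398 3 it was 0.86 and did not pass (adjusted p = 0.0561).

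**Figure D2:**
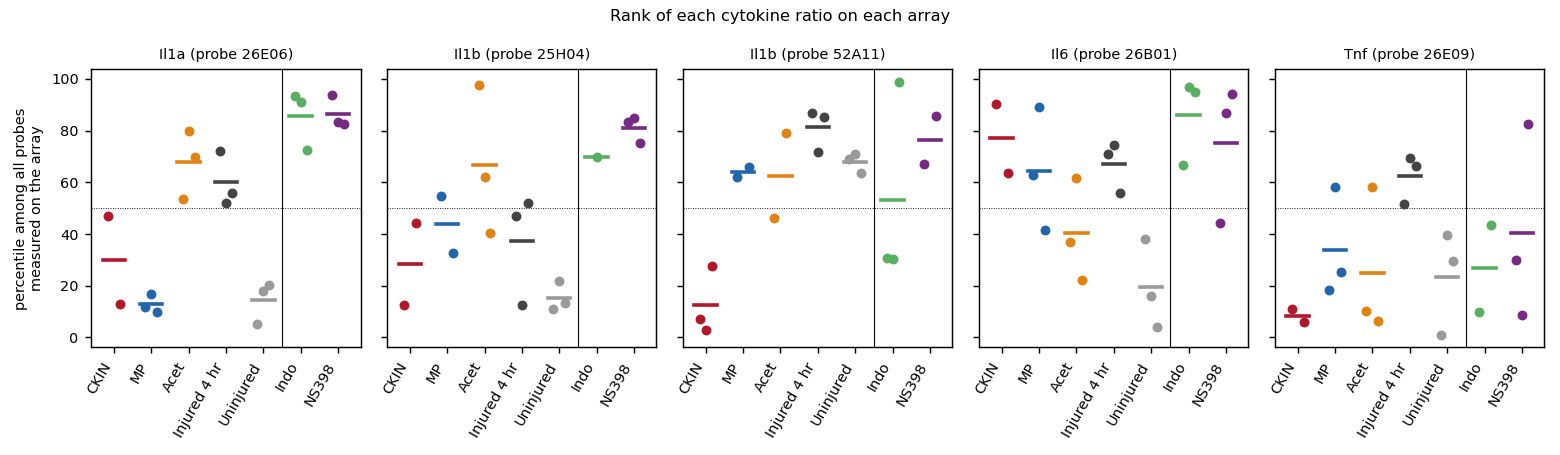
Percentile of each cytokine ratio among all probes measured on the same array (vertical axis), by group, with PBS pool groups left of the line. Points are arrays and lines group means. Il1a stood between percentile 9.81 and 17.0 in MP and between 82.6 and 93.6 in NS398, and Tnf in CKIN at 5.95 and 10.98.

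Il1b, the form cut by caspase 1, was read by a pair of probes. Over the 14 arrays that measured both, their Pearson correlation was 0.078, and on the 8 treatment arrays among these it was 0.46. Between probe 25H04 and Il1a it was 0.64 over 17 arrays and 0.49 over the 11 treatment arrays. These arrays share their groups and centring, and the values are given as a description. The results are given for each Il1b probe on its own.

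Probe 25H04 gave -0.051, -0.52 and 0.029 in Injured 4 hr, against -1.03, -0.73 and -1.03 in Uninjured. The Injured 4 hr arrays all lay above the Uninjured arrays. The difference was 0.75 ± 0.38 (SE, n = 3 each) and did not pass (limma adjusted p = 0.199). Probe 52A11 gave 1.29, 0.43 and 1.18 in Injured 4 hr, against 1.03, 1.26 and 0.76 in Uninjured. Here the groups overlapped, and the difference was -0.051 with a 95% interval from -1.04 to 0.94 (adjusted p = 0.951). Its sign was not stable, with 0.48 after quantile normalization and 0.95 in corrected ratios.

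In CKIN cultures probe 52A11 was -1.44, -1.77 and -0.41, against 1.29, 0.43 and 1.18 in Injured 4 hr, with no overlap. Il1b fell at this probe by 2.17 ± 0.47 on the log2 scale (SE, n = 3 each; limma adjusted p = 0.0067), and 1.39% of the tested differences were as low or lower. The probe stood between percentile 2.75 and 27.6 in CKIN and between 71.8 and 86.9 in Injured 4 hr. The call held without any 1 array, at -2.57 to -1.89. The difference was -0.89 in corrected ratios (adjusted p = 0.342), -0.25 without centring (adjusted p = 0.671) and -1.55 with the array set as a block (adjusted p = 0.397), and none of these passed. All 3 CKIN arrays had many missing spots and no Injured 4 hr array did. Against the treatments with the same pool, the difference was -1.49 from Acet (adjusted p = 0.181) and -1.46 from MP (adjusted p = 0.221), without overlap in either.

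At probe 25H04 the values were -1.09 and -0.10 in CKIN, against -0.051, -0.52 and 0.029 in Injured 4 hr, and the groups overlapped. The difference was -0.42 with a 95% interval from -1.31 to 0.47 (limma adjusted p = 0.53). In MP it was 0.11 and -0.42 on 2 arrays, with a difference of 0.023 from Injured 4 hr and an interval from -0.87 to 0.91 (adjusted p = 0.988). Probe 52A11 was 0.20 and 0.30 in MP, both below Injured 4 hr, and the difference of -0.72 did not pass (adjusted p = 0.5). In Acet, 25H04 ran from -0.18 to 1.22 and 52A11 was -0.065 and 0.62, with differences of 0.63 and -0.69 from Injured 4 hr (adjusted p = 0.509 and 0.632).

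In NS398, probe 25H04 was 0.58, 0.80 and 0.66, all above 0, as were those of 25.5% of all tested probes. The mean was 0.68 ± 0.11 (SD, n = 3), with an adjusted p of 0.0782 in limma. It passed in corrected ratios, at 1.05 (adjusted p = 0.00961), and without centring it turned to -0.21. Probe 52A11 was 0.26 and 0.83 on 2 arrays (adjusted p = 0.376). In Indo, 25H04 was measured on 1 array, at 0.31, and was not tested. Probe 52A11 was -0.39, -0.36 and 1.57 in Indo, so that 1 array stood at percentile 98.8 and the others at 30.9 and 30.2.

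Il6, the cytokine downstream of interleukin 1 and tumour necrosis factor, lay higher on every Injured 4 hr array than on any Uninjured one. Its ratio was 0.46, 0.53 and 0.099 in Injured 4 hr, against -0.41, -0.86 and -1.39 in Uninjured. The difference of 1.25 ± 0.49 (SE, n = 3 each) exceeded 98.8% of all tested differences, but its adjusted p was 0.0921 in limma. It passed in corrected ratios, at 1.78 (adjusted p = 0.0197), and with the array set as a block, at 1.25 (adjusted p = 0.032). All arrays of both groups lie in the same array set, so the block could change the error of this difference but not the difference. Centred on its source plate the difference was 0.76 and did not pass (adjusted p = 0.336), and relative to the plate median the highest Uninjured array, at 0.22, came close to the lowest Injured 4 hr array, at 0.23.

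Il6 did not pass in any treatment with the PBS pool in centred ratios. CKIN was 0.84 and 0.25 and overlapped Injured 4 hr (difference 0.19, 95% interval -0.94 to 1.31, limma adjusted p = 0.849). MP was 0.21, 1.74 and -0.19, the widest spread of the groups with that pool at an SD of 1.02 (difference 0.22, interval -0.79 to 1.24, adjusted p = 0.852). Acet was -0.27, 0.30 and -0.59 (difference -0.55, interval -1.56 to 0.47, adjusted p = 0.7). These intervals reach past 1 on at least one side, so they do not bound a change of Il6 to under that size.

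Against its own pool, Il6 was 0.28, 1.22 and 1.01 in Indo, above 0 on all 3 arrays, as were 24.8% of all tested probes. The mean of 0.84 ± 0.50 (SD, n = 3) did not pass (limma adjusted p = 0.119), and it passed after quantile normalization at 1.28 (adjusted p = 0.00904). In NS398 it was -0.099, 0.87 and 1.86, so that 1 array lay just below 0. The mean was 0.88 ± 0.98 (adjusted p = 0.0737), and without NS398 1 it was 1.36 and passed (adjusted p = 0.0155). Without centring the mean over the 3 NS398 arrays was -0.017, so that its sign turned.

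Tnf, an early product of microglia and macrophages, likewise lay higher on all Injured 4 hr arrays than on the Uninjured arrays. Its ratio was 0.023, 0.37 and 0.30 in Injured 4 hr, against -1.84, -0.34 and -0.65 in Uninjured. The difference of 1.18 ± 0.54 (SE, n = 3 each) was higher than 98.5% of all tested differences and did not pass (limma adjusted p = 0.153). The Uninjured arrays had an SD of 0.79. Centred on its source plate the difference was 0.68 (adjusted p = 0.457), and relative to the plate median the groups overlapped, at 0.17 to 0.46 in Injured 4 hr and -1.21 to 0.22 in Uninjured. Without centring Tnf passed at 2.70 (adjusted p = 0.0059), Il6 at 2.78 (adjusted p = 0.00094) and probe 25H04 of Il1b at 2.28 (adjusted p = 0.0104), where the median of all tested probes was 1.47. Together with Il1a, Il6 and probe 25H04 of Il1b, 4 of the 5 probes lay higher in Injured 4 hr without overlap, as did 21.1% of all tested probes.

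In CKIN Tnf was -1.17 and -1.39, against 0.023, 0.37 and 0.30 in Injured 4 hr. Both CKIN values lay below all Injured 4 hr values, as did those of 38.5% of all tested probes. The difference was -1.51 ± 0.60 (SE, n = 2 and 3; limma adjusted p = 0.0758). Without centring the difference was 0.37 (adjusted p = 0.599). In MP, Tnf was -0.82, 0.20 and -0.64 (difference -0.65, 95% interval -1.76 to 0.46, adjusted p = 0.557). In Acet it was -1.27, 0.20 and -1.24 (difference -1.001, interval -2.12 to 0.12, adjusted p = 0.445). MP 2 and Acet 2 lay within the Injured 4 hr range, while the other arrays of these groups lay lower. Missing spots were few on MP 2, Acet 2 and Acet 3 and many on the rest. In NS398 the 3 arrays ran from -1.32 to 1.01 (adjusted p = 0.723), and in Indo Tnf was -1.28 and -0.099 on 2 arrays (adjusted p = 0.377). The Tnf values of CKIN 1, MP 2, Acet 1, Acet 2 and NS398 2 were exact ratios of whole numbers up to 20.

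**Figure D3:**
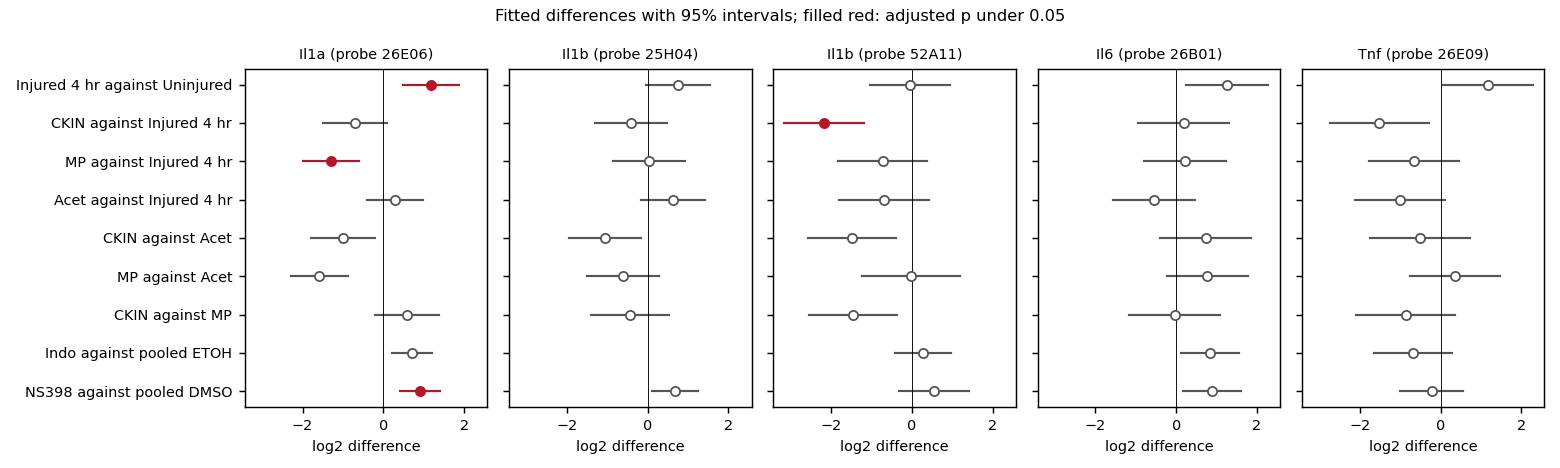
Fitted log2 differences (horizontal axis) of each cytokine probe in the 9 comparisons, with 95% intervals from limma. Red points passed an adjusted p of 0.05, open points did not, and an empty place was not tested. The 4 red points are Il1a in Injured 4 hr against Uninjured, in MP against Injured 4 hr and in NS398 against its pool, and probe 52A11 of Il1b in CKIN against Injured 4 hr.

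Among the treatments themselves no cytokine probe passed. Of CKIN against Acet, 0.16% of 3750 probes passed and none was a cytokine, while 2 of 5 cytokine probes lay lower without overlap, where 13.4% of all did. Of MP against Acet 1 of 5 lay lower without overlap, where 6.01% did. Of CKIN against MP, 0 of 3633 passed in limma, where 552 (15.2%) had an unadjusted p under 0.05, and 2 of 5 cytokine probes lay lower without overlap, where 12.3% did. The comparisons with Injured 4 hr share those 3 arrays, and the comparisons among treatments share theirs, so they are not independent of each other.

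Ordered by mean over the groups with the PBS pool, Il1a ran from MP (-1.09) through Uninjured (-0.97), CKIN (-0.50) and Injured 4 hr (0.21) to Acet (0.49). The step between CKIN and Injured 4 hr was the 1 without overlap. Probe 25H04 of Il1b ran from Uninjured (-0.93) through CKIN (-0.60), Injured 4 hr (-0.18) and MP (-0.16) to Acet (0.45), and all neighbours overlapped. Probe 52A11 ran from CKIN (-1.21), which stood apart, through MP (0.25), Acet (0.28) and Injured 4 hr (0.97) to Uninjured (1.02). Il6 ran from Uninjured (-0.89) through Acet (-0.19), Injured 4 hr (0.36) and CKIN (0.55) to MP (0.59), with overlap at each step. Tnf ran from CKIN (-1.28) through Uninjured (-0.94), Acet (-0.77) and MP (-0.42) to Injured 4 hr (0.23), again with overlap at each step. Fresh cord was thus lowest or next to lowest for 4 of the 5 probes and highest for the other.

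Il1a, Il6 and Tnf were spotted from the same source plate, 26, with 94 other probes, and the median of that plate differed between the groups. On the arrays that measured Il1a, the median of its other probes averaged -0.12 in Injured 4 hr and -0.61 in Uninjured. Relative to its plate Il1a was 0.33 in Injured 4 hr and -0.36 in Uninjured. Centring each array on source plates, a setting added after the data were seen, left a difference of 0.68 for Il1a in Injured 4 hr against Uninjured, and the call was lost (limma adjusted p = 0.174). Plate 52, which holds probe 52A11 and 92 others, had a mean median of -0.47 in CKIN and 0.14 in Injured 4 hr. Centred on its plate, 52A11 differed by -1.54 in CKIN against Injured 4 hr and still passed (adjusted p = 0.027). The difference of Il1a in MP was -1.29 on that scale (adjusted p = 0.0502) and its mean in NS398 0.77 (adjusted p = 0.021).

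**Figure D4:**
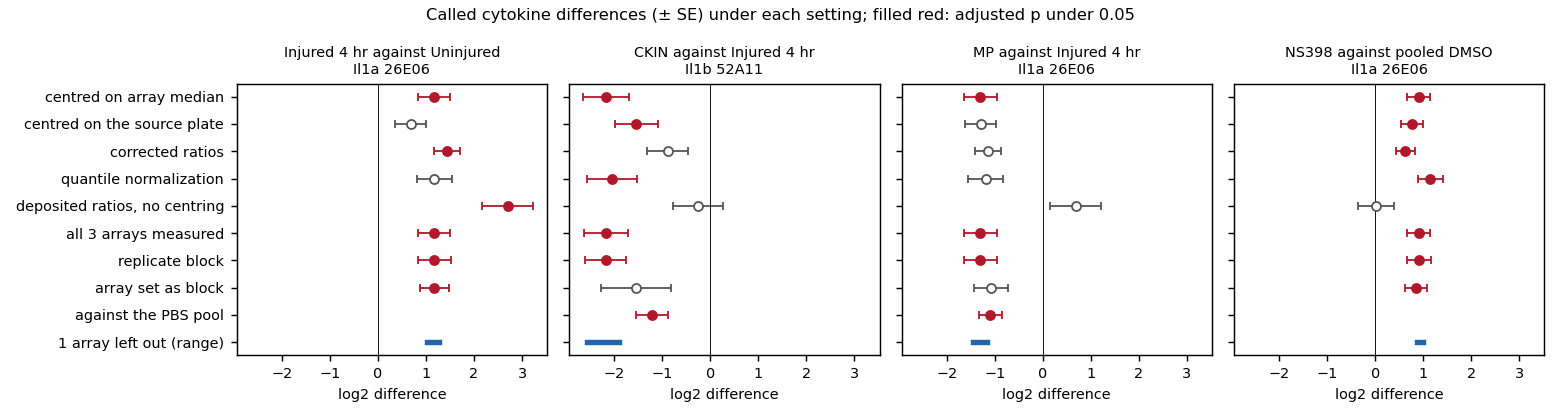
The 4 called cytokine differences (log2, horizontal axis) under each processing setting, with SE bars. Red points passed an adjusted p of 0.05, open points did not, and blue bars span the values with 1 array left out. Il1a after culture kept its sign in every setting and lost its call when arrays were centred on source plates or quantile normalized, while Il1a in MP turned positive without centring.

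Other genes of the same pathway were counted by role, in lists chosen with earlier results of these data known. Among the ligands, 1 of 29 probes rose in Injured 4 hr against Uninjured (3.45%, against 0.809% of all probes). It was Csf3, which drives neutrophil production, at 1.14 ± 0.33 (SE, n = 3 each; limma adjusted p = 0.0266), and it lost its call after quantile normalization (1.16, adjusted p = 0.454). Without centring 23 of the 29 rose. In CKIN 1 of 22 ligand probes fell (4.55%, against 18.5% of all probes), the macrophage factor Mif at -1.59 ± 0.45 (adjusted p = 0.0206), with 0.34 without centring and 0.19 in corrected ratios. No ligand probe of 27 in MP or 30 in Acet passed. Without centring 19 and 26 rose, where most of all tested probes were called higher too. In NS398 4 of 30 rose and 3 fell (13.3% and 10%, against 10.7% and 11.3% of all probes), with Csf3 at 1.66 ± 0.24 (adjusted p = 0.000117) and Il3, a growth factor for blood progenitors, at 1.93 ± 0.31 (adjusted p = 0.000204). Without centring 1 of the 30 rose and 13 fell, with Csf3 at 0.77 (adjusted p = 0.152). In Indo 2 of 25 rose and 3 fell (8% and 12%, against 2.6% and 10.7% of all probes), with Il3 at 1.10 ± 0.31 (adjusted p = 0.0195) and Tgfb2, an anti-inflammatory ligand, at -1.50 ± 0.26 (adjusted p = 0.00034).

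Target and feedback genes made the longest list, chosen like the others with earlier results known, so that its counts are a description. Of its 46 probes, 10 rose and 0 fell in Injured 4 hr against Uninjured (21.7%, against 0.809% of all probes), with a median of 0.79, against -0.045 over all tested probes. They were led by Cxcl2 at 3.73 ± 0.56 (limma adjusted p = 0.000164) and Ccl4 at 3.75 ± 0.64 (adjusted p = 0.000536), chemokines for neutrophils and monocytes, and Ptgs2, which encodes cyclooxygenase 2, at 2.38 ± 0.38 (adjusted p = 0.000495). The median kept its sign in every scaling, from 0.60 to 2.32, and the count ran from 5 after quantile normalization to 36 without centring. Of 20 signal transduction probes 2 rose and 3 fell (10% and 15%, against 0.809% and 13.5% of all probes). The transcription factors Atf3 and Cebpb rose by 2.17 ± 0.38 (adjusted p = 0.000682) and 1.62 ± 0.44 (adjusted p = 0.0163), and Cebpb lost its call after quantile normalization (1.41, adjusted p = 0.393). The kinase Mapk12 fell by 1.22 ± 0.33 (adjusted p = 0.0281), with 0.30 in its place without centring, and it passed in none of the alternative scalings (adjusted p = 0.0841 to 0.965). None of 16 receptor probes passed, at a median of 0.44, and without centring 13 rose.

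In CKIN against Injured 4 hr, 13 of 38 target probes fell and 0 rose (34.2%, against 18.5% of all probes), with a median of -0.83, against -0.38 over all tested probes. The early response factor Junb fell by 1.87 ± 0.40 (limma adjusted p = 0.00599), the protease inhibitor Timp1 by 2.04 ± 0.46 (adjusted p = 0.0071) and the stress enzyme Hmox1 by 2.53 ± 0.57 (adjusted p = 0.0071). After quantile normalization 11 of the 38 fell and 0 rose, and with source plate centring 11 fell and 1 rose. In corrected ratios 1 of the 38 fell, and without centring 16 rose and 0 fell, with Junb at 0.055. Of 12 receptor probes 4 fell and 1 rose (33.3% and 8.33%, against 18.5% and 1.47% of all probes). Il1r2, the decoy receptor for interleukin 1, fell by 1.90 ± 0.43 (n = 2 and 3; adjusted p = 0.0071), and Il6st, the signalling chain for interleukin 6, fell by 1.53 ± 0.42 (adjusted p = 0.019), with 0.39 in its place without centring. The receptor Cd40 fell by 2.45 ± 0.71 (adjusted p = 0.0238). Of 18 transduction probes 2 fell (11.1%, against 18.5% of all probes). They were Cebpb by 2.75 ± 0.49 (n = 2 and 3; adjusted p = 0.00292) and the NF-kB subunit gene Nfkb1 by 1.66 ± 0.40 (adjusted p = 0.00935), the second at 0.26 without centring. After quantile normalization 3 receptor and 2 transduction probes fell, and 1 of each rose. With source plate centring 3 and 2 fell, and 1 and 0 rose. In corrected ratios no receptor or transduction probe passed, and without centring 6 receptor and 12 transduction probes rose and 0 fell. None of the 8 genes named in this comparison's target, receptor and transduction lists passed in either of these settings.

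In MP against Injured 4 hr 1 of 43 target probes fell (2.33%, against 2% of all probes). This was Ptges, which encodes an inducible prostaglandin E synthase, by 2.28 ± 0.47 (limma adjusted p = 0.0178). Without centring 26 of the 43 rose and 0 fell, with Ptges at -0.30 (adjusted p = 0.685). No probe of 13 for receptors or 18 for transduction passed, and without centring 8 and 12 rose. In Acet against Injured 4 hr 3 of 46 target probes fell (6.52%, against 1.2% of all probes). Ptges fell by 2.61 ± 0.48 (adjusted p = 0.0167), Timp1 fell by 2.18 ± 0.46 (adjusted p = 0.0263) and the protease Plau by 1.45 ± 0.35 (adjusted p = 0.0442), the last at 0.48 without centring. In corrected ratios 1 of the 46 fell, and neither Timp1 (adjusted p = 0.0653) nor Plau (adjusted p = 0.105) passed. Without centring 27 rose and 0 fell, with Ptges at -0.68 (adjusted p = 0.361) and Timp1 at -0.25 (adjusted p = 0.564). No receptor or transduction probe passed in Acet, and without centring 4 and 11 rose.

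In NS398 against its pool, 17 of 45 target probes rose and 6 fell (37.8% and 13.3%, against 10.7% and 11.3% of all probes). Here and for the other lists, tests of NS398 and Indo against 0 leave out the spread among vehicle cultures. The same test of Injured 4 hr against the PBS pool, like against like, called 22.1% of 4865 probes. The monocyte attractant Ccl2 rose by 4.14 ± 0.35 (limma adjusted p = 1.44e-07) and 3.16 ± 0.28 (adjusted p = 1.86e-07) on its 2 probes, and Ptgs2 by 3.27 ± 0.27 (adjusted p = 1.86e-07). Without centring 9 rose and 15 fell. Of 15 receptor probes 2 rose and 2 fell (13.3% each, against 10.7% and 11.3% of all probes). Among them were the TNF receptor gene Tnfrsf1b at -1.57 ± 0.33 (adjusted p = 0.00204) and Il6st at 0.93 ± 0.30 (adjusted p = 0.0296). Il6st was 0.039 without centring (adjusted p = 0.932) and 0.30 in corrected ratios (adjusted p = 0.494). Of 19 transduction probes 4 rose and 1 fell (21.1% and 5.26%, against 10.7% and 11.3% of all probes), led by Atf3 at 1.93 ± 0.27 (adjusted p = 5.62e-05). Without centring 0 receptor probes rose and 8 fell, and 1 transduction probe rose and 7 fell. In Indo against its pool 3 of 42 target probes rose and 5 fell (7.14% and 11.9%, against 2.6% and 10.7% of all probes). Ptges fell by 1.99 ± 0.34 (adjusted p = 0.000228), and 2 of 8 receptor probes fell, among them Tnfrsf1b by 1.64 ± 0.33 (adjusted p = 0.00124).

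Microglia and macrophage markers were set beside the cytokines, since these cells are a known source of them. Of 15 probes for such markers, 0 passed in Injured 4 hr against Uninjured, with array medians of 0.10 to 0.29 in Injured 4 hr and -0.50 to 0.13 in Uninjured. In corrected ratios 5 of the 15 rose, and without centring 12. In MP 0 of 14 passed, with array medians from -0.070 to 0.28, and without centring 10 rose. In CKIN 4 of 12 fell and 1 rose (33.3% and 8.33%, against 18.5% and 1.47% of all probes), with C1qb at -1.28 ± 0.40 (limma adjusted p = 0.031), Cx3cr1 at -1.34 ± 0.43 (adjusted p = 0.0358) and Cd86 at 1.22 ± 0.42 (adjusted p = 0.0449). The falls of C1qb and Cx3cr1 turned to 0.65 and 0.59 without centring, and C1qb to 0.28 in corrected ratios. Of the 12, 1 fell and 2 rose after quantile normalization, and 3 fell and 0 rose with source plate centring. In corrected ratios 0 of the 12 passed, and without centring 7 rose and 0 fell. In NS398 3 of 15 rose (20%, against 10.7% of all probes), with C1qb at 1.51 ± 0.29 (adjusted p = 0.000809). In corrected ratios 1 rose, and without centring 0 rose and 4 fell. Of 12 probes for blood, granulocyte and lymphocyte markers 0 passed in Injured 4 hr against Uninjured, and without centring 12 rose. Of the neuronal and astrocyte probes 12 of 19 and 8 of 14 fell there (63.2% and 57.1%, against 13.5% of all probes). After quantile normalization 3 and 0 fell, in corrected ratios 8 and 6, and with source plate centring 10 and 6. Without centring 4 and 1 fell, and 1 of each rose. Centred Gapdh was also lower in Injured 4 hr, at 2.15 to 2.17, than in Uninjured, at 3.66 to 4.03. In these whole cultures fewer cells of a type, less RNA per cell and an effect of the array scaling cannot be told apart. The part of cell makeup in the cytokine values was not tested.

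The genes whose ratios followed each cytokine most closely over the arrays were taken from up to 2991 other probes, by Pearson correlation, as a description. Arrays share groups, pools and centring, and probes of 1 source plate share that plate. Il1a was followed by the chemokine Cxcl2 (0.81, 20 arrays), by Atf3 (0.78, 20 arrays), the chemokine Ccl4 (0.73, 20 arrays), the acetylcholine receptor subunit Chrnb3 (0.73, 17 arrays) and the cytokine signalling brake Socs1 (0.70, 20 arrays). Cxcl2 and Ccl4 lie on the plate of Il1a. Il6 was followed by Npy4r (0.80), Fetub (0.75), C4bpb (0.74), Gip (0.74) and Socs3 (0.73), the last a feedback inhibitor of interleukin 6 signalling, over 17 or 18 arrays, and C4bpb lies on the plate of Il6. Tnf was followed by Hmox1 (0.74), Lrit1 (0.74), Foxc2 (0.73), the chemokine Cxcl16 (0.70) and the lipase Lpl (0.69), over 17 to 19 arrays. Probe 25H04 of Il1b was followed by Slc4a1 (0.82), Xdh (0.75), Cdx2 (0.75), Gadd45g (0.74) and H1f6 (0.74), over 15 to 17 arrays, and Gadd45g lies on its plate. Probe 52A11 was followed by Rock1 (0.85), Klk1b3 (0.83), Arl1 (0.82), Exoc7 (0.81) and Arhgap39 (0.81), over 16 to 18 arrays, and the first 2 lie on its own plate. No gene was among the 5 of both Il1b probes. Among the cytokines, Il6 and Tnf correlated at 0.45 over 19 arrays and at 0.63 over the 13 treatment arrays. Il1a and Il6 correlated at 0.40 over 20 arrays and at 0.17 over the 14 treatment arrays.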

How the data were processed

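The value table deposited by the authors holds log2 ratios of 21 arrays against culture pools. The log base was read from exact logarithms of whole-number ratios, and the direction from the order of RNAs in the titles. The sources used here name no dye, scanner, background correction, normalization or filter on spots. No depth exists for arrays, and their number limits precision. Symbols came from the platform annotation (4423 probes with 1 symbol, 2 with several, 951 with none; 4375 updated by gene identifier). The 52 measured Gapdh spots were averaged.

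Each array was centred on its median, and 1 limma 3.58.1 model (R 4.3.3) with 1 coefficient per group was fitted to all arrays. A probe was tested with at least 2 values in each compared group. P-values were 2-sided and adjusted by Benjamini-Hochberg within each comparison over all tested probes, with a threshold of 0.05. Indo and NS398 were tested against 0. P-values measure the spread between these arrays, which may be technical, since no label ties replicates to separate animals or cultures.

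Alternatives were deposited ratios, quantile normalization, corrected ratios (loess of span 0.4 on the mean Injured 4 hr ratio, then centring on source plates with at least 20 probes), all 3 arrays measured, a replicate block, a block for arrays with more than 1100 missing spots, the PBS pool as reference, leaving out each array and, added after seeing the data, source plate centring. The fit was tested on simulated data. All 5 cytokine probes were named, with at most 3 passing members of lowest p per list and comparison and the 5 probes most alike. The members and lists were chosen with earlier results of these data known.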

Additional observations from a re-analysis of the deposited data

How the results depend on the processing

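Of the 4 called cytokine differences, Il1a in Injured 4 hr against Uninjured and in NS398 and Il1b 52A11 in CKIN kept their direction under every alternative run, and Il1a in MP did so except without centring. Their ranges without 1 array were 1.03 to 1.27 for Il1a after culture (lost without Injured 4 hr 1 or 3 or Uninjured 1), -2.57 to -1.89 for 52A11 in CKIN, -1.46 to -1.15 for Il1a in MP, and 0.86 to 1.00 for Il1a in NS398 (lost without NS398 3). Where a value below is not explained by fewer arrays, the cause was not tested. Without centring the probes called were 2430 in Injured 4 hr against Uninjured, 2232 in CKIN, 3170 in MP and 3371 in Acet against Injured 4 hr, 289 in Indo, 1977 in NS398, 2 in CKIN against Acet and 0 in MP against Acet. These compare with 690, 748, 90, 62, 507, 986, 6 and 1 in centred ratios, and with 0 in CKIN against MP. Quantile normalization gave 20 in Injured 4 hr against Uninjured, 35 in MP against Injured 4 hr, 899 in Indo, 102 in CKIN against Acet and 8 in CKIN against MP. Corrected ratios gave 358, 24, 43 and 41 in the first 4 comparisons, 582 in NS398, 22 in CKIN against Acet and 2 in MP against Acet. The array set as a block gave 6 in CKIN and 33 in MP against Injured 4 hr, 949 in Indo, 8 in MP against Acet and 2 in CKIN against MP. The PBS pool as reference gave 1373 in MP and 1443 in Acet. All 3 arrays measured gave 20 in CKIN against Acet, and source plate centring, chosen after seeing the data, gave 59 in MP and 30 in Acet against Injured 4 hr and 19 in CKIN against Acet. Without 1 array the counts ran from 363 to 494 in Injured 4 hr against Uninjured, 199 to 539 in CKIN, 3 to 575 in MP and 0 to 87 in Acet against Injured 4 hr, 315 to 412 in Indo, 534 to 984 in NS398, 0 to 46 in CKIN against Acet, 0 to 19 in MP against Acet and 0 to 20 in CKIN against MP. Cytokine probes that turned sign, none of them called in centred ratios except Il1a in MP, were as follows. Without centring, 52A11 was 1.48 after culture, 1.82 in MP, 1.50 in Acet and 0.32 in MP against Acet. Without centring, Il1a was 1.18 in CKIN and 0.69 in MP, 25H04 1.47 in CKIN and -0.21 in NS398, Tnf 0.37 in CKIN, 1.33 in MP and 0.93 in Acet, and Il6 1.38 in Acet and -0.017 in NS398. Probe 52A11 after culture was 0.48 after quantile normalization, 0.95 in corrected ratios and 0.26 centred on plates. In corrected ratios it was 0.22 in MP, 0.12 in Acet and 0.10 in MP against Acet. Against the PBS pool 52A11 was 0.25 in MP and 0.28 in Acet, and 25H04 -0.16 in MP. In MP against Acet 52A11 was 0.28 with the array set as a block and 0.034 centred on plates. With that block 25H04 was -0.088 in MP. Il6 in CKIN against MP was 0.36 after quantile normalization, 0.063 in corrected ratios and 0.33 with the array set as a block. Leaving out 1 array turned 52A11 after culture (-0.21 to 0.22), in Indo (-0.38 to 0.61) and in MP against Acet (-0.37 to 0.32). It turned 25H04 in CKIN (-0.91 to 0.078), in MP (-0.24 to 0.29) and in CKIN against MP (-0.94 to 0.055). It also turned Il6 in CKIN (-0.11 to 0.48), in MP (-0.35 to 0.61) and in CKIN against MP (-0.43 to 0.54), and Tnf in NS398 (-0.84 to 0.33). A lone array left in a group was assumed to vary like the others. Replicate numbers were not used to pair the samples, and no label says whether they do. Deviations of same-numbered arrays correlated between -0.119 and 0.451 and never all above 0.1 in a comparison. The highest were in MP against Acet, at 0.338, 0.451 and 0.00918 for replicates 1, 2 and 3. Whether those arrays share a preparation is not known. The replicate block changed no call of a cytokine probe, and its counts of probes called were 711, 784, 121, 86, 523, 1010, 6, 1 and 0 over the 9 comparisons. Few arrays, missing spots and the absence of intensities limit what could be measured.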

Other observations

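Markers of cells other than microglia also differed in some comparisons, with or without a cytokine probe that passed. In MP against Injured 4 hr, where Il1a passed, no probe of the neuronal, astrocyte, oligodendrocyte, endothelial and meningeal or blood lists did. In Acet against Injured 4 hr, where no cytokine probe passed, 2 of 14 endothelial and meningeal probes fell (14.3%, against 1.2% of all tested probes). Without centring 10 of them rose and 0 fell. In CKIN against Injured 4 hr 6 of 11 oligodendrocyte probes fell and 0 rose (54.5%, against 18.5% of all tested probes), with the myelin lipid enzyme Ugt8 at -2.67 ± 0.49 (SE, n = 3 each; limma adjusted p = 0.00315). After quantile normalization 4 of these 11 fell, and with source plate centring 7 did. In corrected ratios 0 of these 11 passed, and without centring 1 rose and 0 fell. In NS398 against its pool 5 of 14 endothelial and meningeal probes rose and 1 fell (35.7% and 7.14%, against 10.7% and 11.3% of all tested probes). The matrix proteoglycan Dcn was at 2.99 ± 0.35 (n = 3; adjusted p = 8.33e-06) and the collagen Col1a2 at 1.73 ± 0.34 (adjusted p = 0.00117). In corrected ratios 4 of these 14 rose and 0 fell, and without centring 2 rose and 4 fell. In NS398, 4 of 10 blood, granulocyte and lymphocyte probes rose and 1 fell (40% and 10%, against 10.7% and 11.3% of all tested probes). In Indo 1 of 9 rose and 1 fell (11.1% each, against 2.6% and 10.7%). The list medians were -0.098 in NS398 and -0.00053 in Indo. Cd2 fell in NS398 (n = 2, adjusted p = 0.0271) and Cd3g in Indo, at -1.12 ± 0.22 (adjusted p = 0.00103). The haemoglobin gene Hba-a1, each time against a pool of the vehicle, was at 2.25 ± 0.39 in NS398 (n = 3, adjusted p = 0.000368). In Indo Hba-a1 was at 1.22 ± 0.39 (adjusted p = 0.0378). In corrected ratios it was 0.50 in NS398 (adjusted p = 0.136) and 0.059 in Indo (adjusted p = 0.91), and neither passed. The part of these cells in the cytokine values was not tested.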
